A study of Mus musculus with 4 samples.

Results

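The cytosolic ribosomal protein genes encode the protein part of the ribosome that translates nuclear mRNAs. They were chosen by symbol alone: Rpl or Rps with a number, together with Rplp0, Rplp1, Rplp2 and Rpsa, and without the Rps6k kinases and Rps19bp1. The rule found 90 genes among the 25265 in the count table. Of these, 77 are canonical members (43 of the large subunit, 31 of the small subunit and the 3 stalk genes), 9 are paralogs with a symbol of their own, and 4 (Rps3a2, Rps3a3, Rpl37rt and Rpl6l) are further copies that were recognised as such only after the table was seen. The rule itself uses no measured value.

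RNA-seq was done on whole testis of C57BL/6 mice at postnatal day 56, in 2 control libraries and 2 libraries labelled Ythdf2-vKO. The labels describe the controls by that word only, and the series title calls the mutants germ cell-specific. The driver of the deletion, the deleted exons, and whether the libraries of a group are separate animals are not given in the sources used here, so p-values may measure technical spread only. Total RNA was depleted of rRNA and made into directional libraries that were read on a HiSeq X instrument. Library totals ran from 24862518 to 29561182 counts.

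Ythdf2 encodes a reader of methylated adenosines in mRNA that hastens the decay of the transcripts it binds. The controls had 1193 and 1604 Ythdf2 counts, and the labelled vKO libraries 1774 and 1807. At 51.0 and 53.5 against 66.3 and 67.0 CPM (counts scaled to a common library total), it was not lower in the latter, and its log2 fold change of 0.35 ± 0.13 (SE, n = 2 and 2) had an adjusted p of 0.238 by edgeR's quasi-likelihood test. Counts over the whole gene cannot tell which exons were read. The groups are therefore named by their labels throughout ("labelled vKO").

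A ribosome holds 1 copy of nearly every ribosomal protein, and the 2 subunits are assembled with rRNA in the nucleolus. The ribosomal protein mRNAs are among the most abundant of growing cells, and most of them begin with a terminal oligopyrimidine tract through which mTOR signalling and the binding protein LARP1 control their translation. Male germ cells silence the X chromosome during meiosis, and several X-linked ribosomal protein genes have autosomal copies, such as Rpl10l and Rpl39l, that are known to be used in the testis. Mammalian genomes also hold many processed pseudogenes of these genes, which makes short reads from them hard to place.

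The sequences of the X-linked parents and their autosomal paralogs show how far reads can tell them apart. The whole coding sequence of Rpl39, without the stop codon, lies below beside that of Rpl39l, and capitals mark the bases at which the pair differ. Rpl39 lies at chrX:37082520-37085402 on the minus strand and Rpl39l at chr16:10170226-10174911 on the plus strand of GRCm38 (GENCODE M21).
Rpl39: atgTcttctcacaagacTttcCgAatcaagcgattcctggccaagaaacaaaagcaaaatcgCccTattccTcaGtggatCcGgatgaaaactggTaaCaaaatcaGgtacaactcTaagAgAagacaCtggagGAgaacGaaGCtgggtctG
Rpl39l: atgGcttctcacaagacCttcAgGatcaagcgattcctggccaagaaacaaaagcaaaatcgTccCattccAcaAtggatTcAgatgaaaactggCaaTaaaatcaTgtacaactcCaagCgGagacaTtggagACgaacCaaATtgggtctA
The pair differed at 23 of 153 bases (85.0% identity), and the longest stretch they shared without a difference was 38 bases.

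The first 150 coding bases are shown for the other X-linked parents whose paralog was abundant in these libraries, again with differences in capitals. Rpl10 lies at chrX:74270812-74273135 (plus strand), Rpl10l at chr12:66283379-66284401 (minus strand), Rps4x at chrX:102184941-102189394 (minus strand) and Rps4l at chr6:148354656-148355598 (plus strand).
Rpl10: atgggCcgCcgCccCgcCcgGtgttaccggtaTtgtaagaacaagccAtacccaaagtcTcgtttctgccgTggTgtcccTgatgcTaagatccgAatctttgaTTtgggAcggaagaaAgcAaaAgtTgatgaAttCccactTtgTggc
Rpl10l: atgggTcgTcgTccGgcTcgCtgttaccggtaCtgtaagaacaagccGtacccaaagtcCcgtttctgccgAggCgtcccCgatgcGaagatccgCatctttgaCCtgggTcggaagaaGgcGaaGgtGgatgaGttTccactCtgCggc
Rps4x: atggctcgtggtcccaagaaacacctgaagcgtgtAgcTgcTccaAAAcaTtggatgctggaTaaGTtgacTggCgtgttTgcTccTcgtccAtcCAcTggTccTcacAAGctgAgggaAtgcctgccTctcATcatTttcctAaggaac
Rps4l: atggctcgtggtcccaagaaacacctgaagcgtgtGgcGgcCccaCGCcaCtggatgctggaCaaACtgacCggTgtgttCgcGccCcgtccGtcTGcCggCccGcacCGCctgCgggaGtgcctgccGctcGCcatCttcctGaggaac
Over the whole coding sequence Rpl10 and Rpl10l were 84.7% identical over 642 bases, with a longest shared run of 23 bases, and Rps4x and Rps4l were 79.6% identical over 789 bases, with a longest shared run of 35 bases. GENCODE M21 lists Rps4l as a transcribed processed pseudogene. Its transcript nevertheless keeps the start codon and an open frame of 262 codons before a stop at codon 263, where Rps4x has 263 codons.

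A coding read longer than these runs differs between parent and paralog at 1 or more bases, but many stretches of a parent are also found in its processed pseudogenes. In the annotated transcripts, 91.9% of the windows of 75 bases in Rpl10 occurred in at least 1 other gene's transcript, as did 52.9% of those in Rps4x, 84.6% in Rpl36a and 7.62% in Rpl39. For Rpl10l, Rpl39l and Rps4l the shares were 0.316%, 0% and 8.11%. Over all 90 genes the share had a median of 50.3% and ran from 0% to 98.5%, and 82 of the 90 had at least 1 copy elsewhere in the annotation with at least 95% identity over at least 200 bases. The length of 75 bases was a setting, and longer stretches are shared no more often. How the aligner placed such reads is not given in the sources used here, so levels of genes with a high share are uncertain.

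Levels were compared between genes as CPM per kb of transcript, with libraries scaled by a trimmed mean (TMM). Rplp0, the anchor of the ribosomal stalk, was the most abundant at 568 and 625 CPM per kb in the controls and 498 and 561 in the labelled vKO libraries. Rpl41, which encodes a very short basic protein of the large subunit, followed at 551 ± 16.8 CPM per kb in controls (SD, n = 2) and 500 ± 62.6 in the labelled vKO libraries. Rpl29, Rpl13 and Rpl26, all of the large subunit, came next at means of 473, 466 and 402 CPM per kb over the 4 libraries. Within each of the 4 libraries Rplp0 was above Rpl41, Rpl41 was above Rpl29 and Rpl13, and Rpl26 was the lowest of the 5. Rpl29 and Rpl13 changed places between libraries. The order below Rplp0 depended on the length used. With the union of annotated exons, a choice added after seeing the data, Rplp0 stayed highest at 461 CPM per kb, followed by Rplp1 at 303. Rpl29 then stood at 245, Rpl41 at 229, Rpl26 at 146 and Rpl13 at 140 CPM per kb. The median over the canonical members was 159 CPM per kb.

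**Figure D1:**
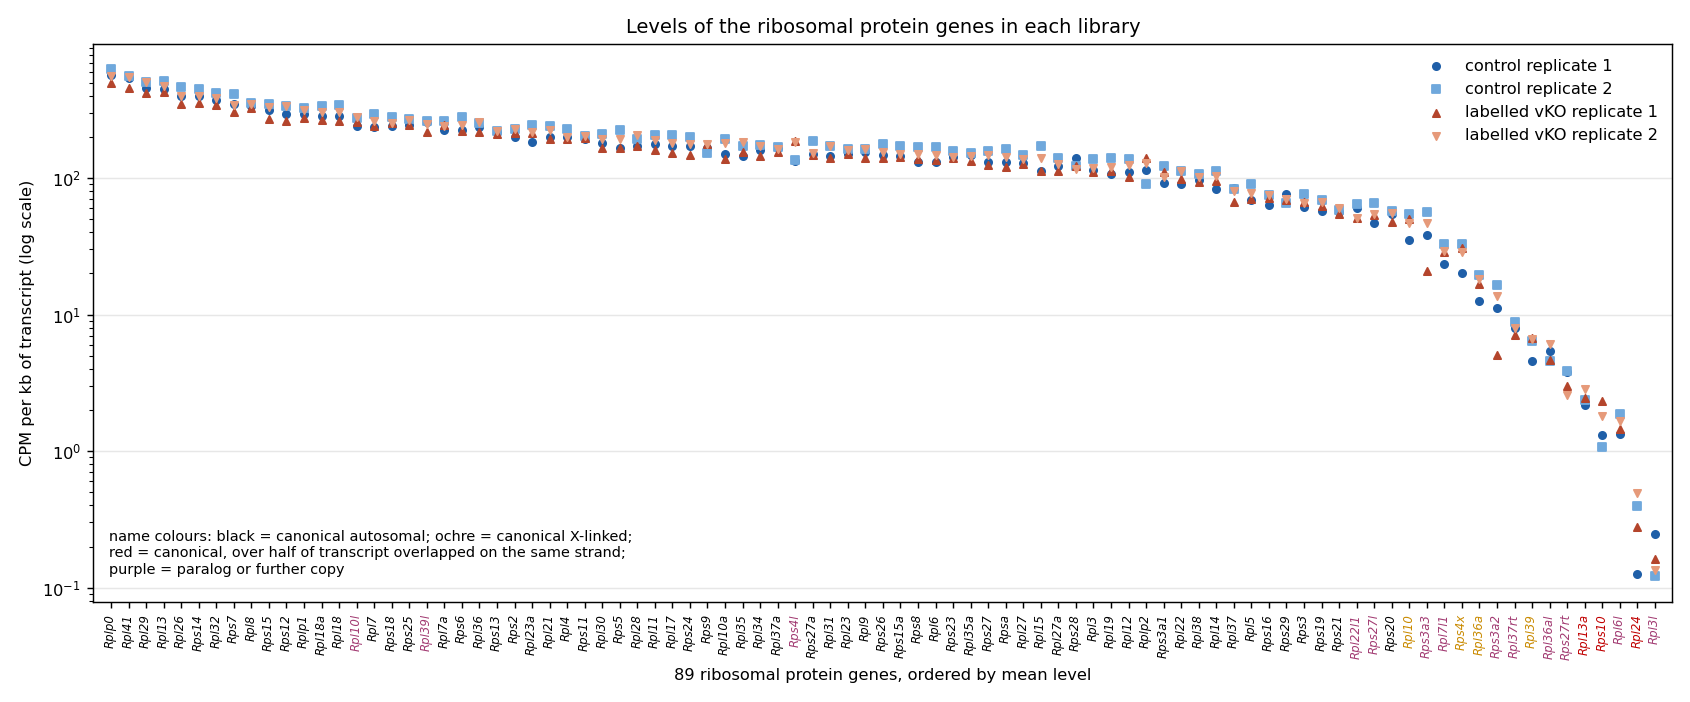
Level of 89 ribosomal protein genes (CPM per kb of transcript, log axis) in each of the 4 libraries, ordered by the mean over libraries. Most canonical genes lie between 53.6 and 563 CPM per kb, and the X-linked and the overlapped canonical genes lie at the right, at 46.5 CPM per kb or lower.

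The 7 canonical genes with the lowest levels fell into 2 kinds. The first kind was the 4 X-linked members, Rpl10, Rps4x, Rpl36a and Rpl39, at means of 46.5, 28.2, 16.7 and 6.07 CPM per kb. The second was Rpl13a, Rps10 and Rpl24, at 2.45, 1.63 and 0.322 CPM per kb. The other 70 canonical genes ran from 53.6 to 563 CPM per kb, a range of 10.5-fold with a median of 164. Rps20 held the lower end of that range, and the transcript used for its length, the shortest with the longest coding sequence, is 3706 bases long. Its level per kb may therefore be understated (Rps20 was singled out after its value was seen). The same rule set the lengths of the other genes. With the union of annotated exons as the length, a choice added after seeing the data, 5 of the 7 genes remained among the 7 lowest. The X-linked Rpl10 and Rps4x left that set, at 18.1 and 16.8 CPM per kb, above the autosomal Rps15a at 15.5.

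Rpl13a, Rps10 and Rpl24 were nearly uncounted in every library. Rpl13a encodes a large-subunit protein that also takes part in translational silencing after interferon-gamma, and its row held 53 and 74 counts in the controls and 69 and 80 in the labelled vKO libraries. Rps10, of the small subunit, held 22 and 23 against 44 and 35 counts. Rpl24, of the large subunit, held 2 and 8 against 5 and 9 counts and was too low to be tested. None of the 70 canonical genes that were neither X-linked nor overlapped fell below 517 counts in any library. In GENCODE M21, exons of another gene on the same strand cover 59.3% of the Rpl13a transcript, 66.7% of that of Rps10 and 71.5% of that of Rpl24, and these 3 were the only canonical genes with more than 50% covered. Rpl36al, a paralog on chromosome 12, had 63.1% of its transcript covered and held 67, 72, 65 and 86 counts. Whether reads in overlapping genes were left out of the deposited counts was not tested, and these low levels are not read as low expression.

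The paralogs of 3 of the 4 X-linked genes were far more abundant than their parents in every library. Rpl39l was counted at 141 and 145 CPM in the controls and at 119 and 138 CPM in the labelled vKO libraries, where Rpl39 reached 2.78 and 3.94 CPM and 4.11 and 4.04 CPM. Per kb, Rpl39l stood 32.1 to 56.3 times as high as Rpl39 across the 4 libraries. That ratio rests on 65 and 118 Rpl39 counts in the controls and 110 and 109 in the labelled vKO libraries. Rpl39 lines the exit tunnel of the large subunit, and Rpl39l is its testis paralog. The libraries of parent and paralog did not come near each other.

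Rpl10 carries a part of the subunit interface, and Rpl10l is known to take its place in late meiosis. Rpl10l was counted at 247 and 283 CPM in the controls and at 264 and 287 CPM in the labelled vKO libraries. Rpl10 was counted at 28.2, 43.2, 39.8 and 37.3 CPM in the same order. The ratio of Rpl10l to Rpl10 per kb ran from 5.12 to 6.82 over the libraries, and control replicate 1, which had the lowest Rpl10, gave the highest ratio.

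Rps4x encodes a small-subunit protein, and Rps4l is an intronless copy of it on chromosome 6. Rps4l was counted at 106 and 107 CPM in the controls and at 148 and 146 CPM in the labelled vKO libraries. Rps4x had 462 and 964 counts in the controls and 803 and 754 in the labelled vKO libraries. The ratio of Rps4l to Rps4x per kb ran from 4.12 to 6.60. The Rps4l transcript used for its length ends at the stop codon and spans 789 bases, where the longest M21 transcript has 943, so its level per kb may be overstated.

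The other paralogs were below their parents. Rpl36al, whose parent Rpl36a is the fourth X-linked member, stood at 0.234 to 0.433 of its parent per kb, a ratio that rests on the overlapped Rpl36al transcript. Rpl22l1 stood at 0.453 to 0.671 of Rpl22, Rps27l at 0.355 to 0.426 of Rps27, and Rpl7l1 at 0.0988 to 0.119 of Rpl7. Rps27rt, a retrotransposed copy, was at 0.0174 to 0.0286 of Rps27, but 90.3% of its windows of 75 bases are shared with other transcripts. Rpl3l, a paralog of Rpl3 best known from heart and skeletal muscle, had 8, 5, 6 and 5 counts and was not tested. With the exon union as the length the ratio of Rpl10l to Rpl10 was 14.6 in place of 5.68, that of Rpl39l to Rpl39 62.9 in place of 40.6, that of Rpl22l1 to Rpl22 0.931 in place of 0.546, that of Rps27l to Rps27 0.833 in place of 0.391, that of Rps27rt to Rps27 0.0708 in place of 0.0234 and that of Rpl3l to Rpl3 0.00273 in place of 0.00139. Each of these ratios stayed on the same side of equal levels.

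**Figure D2:**
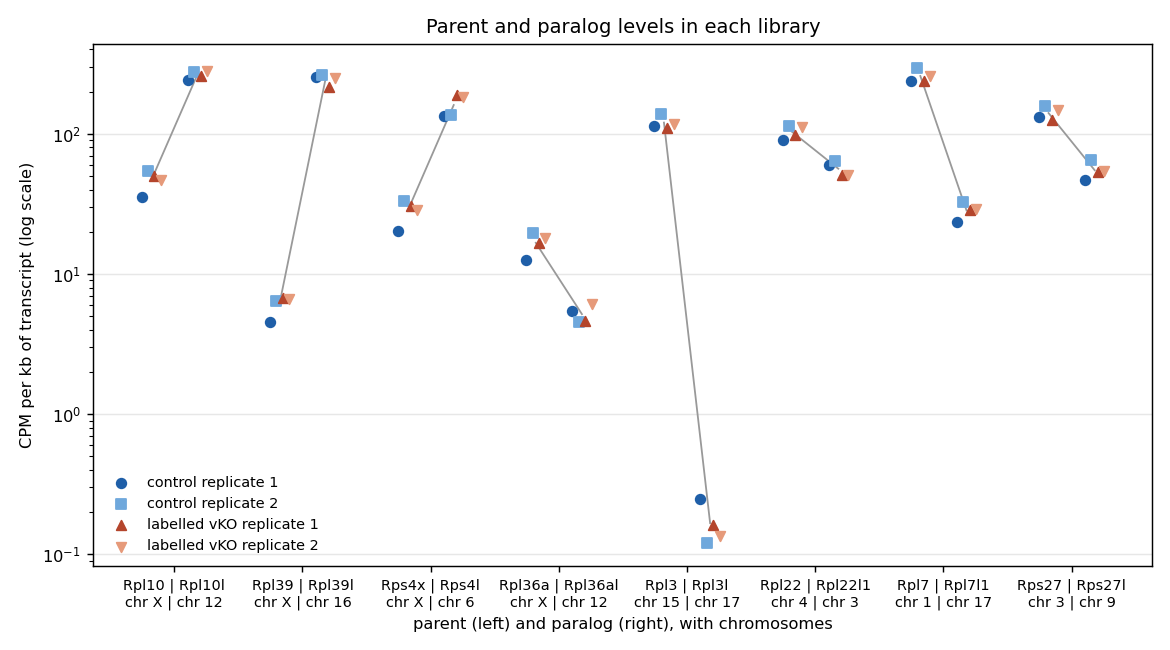
Levels of 8 parents (left of each pair) and their paralogs (right) in CPM per kb of transcript on a log axis, 1 point per library, with lines joining the means over the 4 libraries. Rpl10l, Rpl39l and Rps4l lie above their X-linked parents in every library, and the other 5 paralogs lie below theirs.

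The comparison asks whether the mRNA levels of these genes differ between the labelled vKO and the control testes. Of the 90 genes, 88 passed the filter on low counts. None of the 88 was called higher or lower at an adjusted p under 0.05 by edgeR, where 83 of all 21132 genes tested (0.393%) were called, 59 of them higher (0.279%) and 24 lower (0.114%). At an unadjusted p under 0.05, 2 of the 88 genes and 14.1% of all genes passed. DESeq2's Wald test also called 0 members, with 2 at an unadjusted p under 0.05, where it called 1.32% of the genes to which it gave an adjusted p. The authors' deposited fold changes and adjusted p equal those of this DESeq2 run for Rps4l, Rps4x and Rps7, so they are not a separate check. Among the deposited values, 0 of the 85 members with an adjusted p were under 0.05, and the lowest of these was 0.0574, for Rps4l.

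The fold changes were small. The median log2 fold change over the 88 genes was −0.08, against 0.00 over all genes tested, and 66 of the 88 lay below 0, as did 49.7% of all genes. Among the 79 members with a mean of at least 10 CPM, all lay between −0.49 and 0.47. Over all 88 genes the values ran from −0.58 for Rps3a2 to 0.79 ± 0.42 for Rps10 (adjusted p = 0.428, edgeR), both below that level. The standard error of a typical member was 0.13. The median was −0.08 for the large subunit (42 tested), −0.08 for the small subunit (31 tested), −0.07 for the stalk genes (3 tested), −0.02 for the paralogs (8 tested) and −0.33 for the further copies (4 tested).

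**Figure D3:**
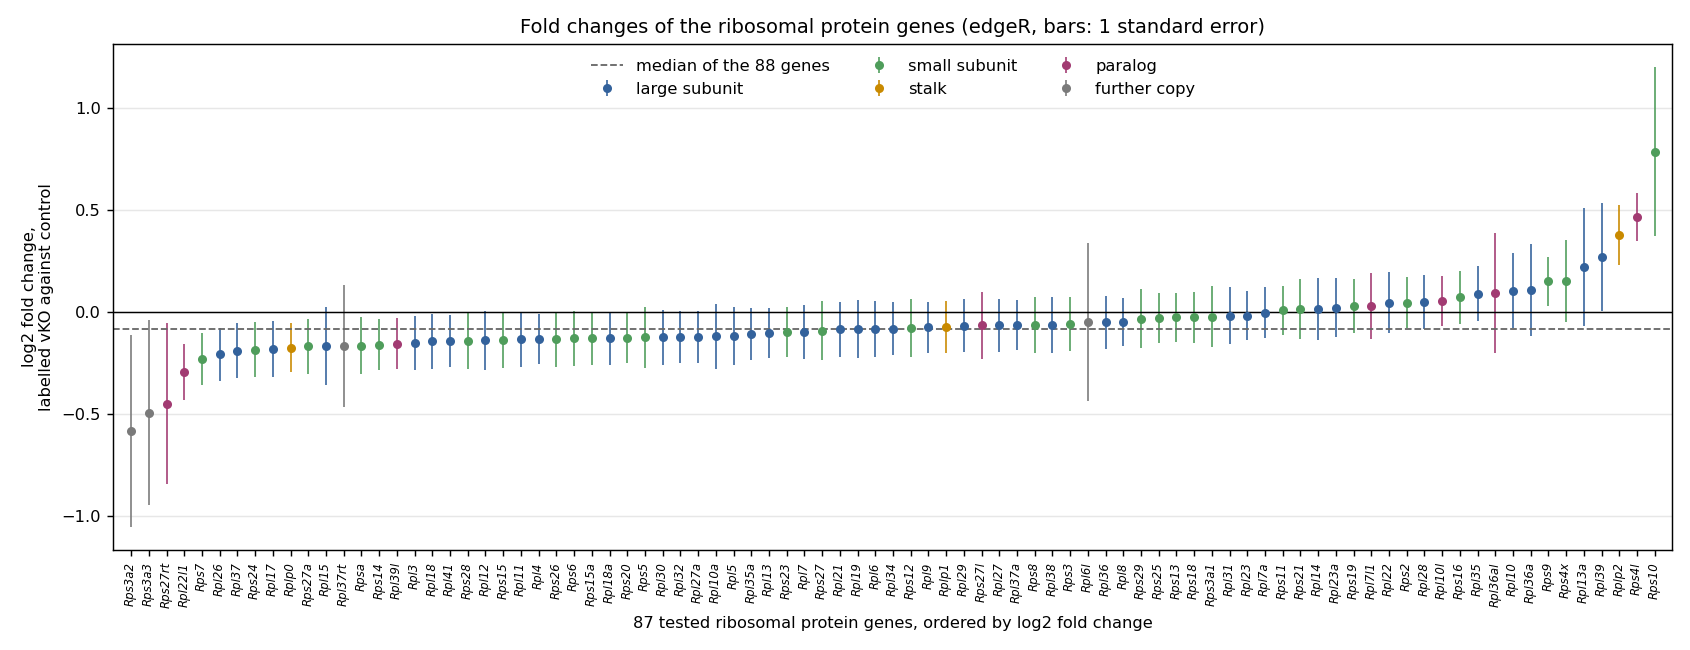
Log2 fold change, libraries labelled vKO against controls, of 87 tested ribosomal protein genes with 1 standard error (edgeR), ordered by value and coloured by class. Most lie slightly below 0 around a median of −0.08, and the widest bars belong to genes with few counts.

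The size of that median depended on single libraries, and its direction on control replicate 2. Of the 88 genes, 81 were higher in control replicate 2 than in control replicate 1, and 76 were higher in labelled vKO replicate 2 than in replicate 1, where about as many genes overall went either way (50.5% and 47.9% of all genes tested). The median log2 difference was 0.21 between the 2 controls and 0.14 between the 2 libraries labelled vKO, both larger in size than the difference of 0.08 between the groups. Control replicate 2 held the highest value for 72 of the 88 genes, and labelled vKO replicate 1 the lowest for 52. Without control replicate 2 the members' median was 0.02, without control replicate 1 it was −0.19, without labelled vKO replicate 1 it was −0.01, and without labelled vKO replicate 2 it was −0.16. Calls also moved with the library left out: edgeR called 4 members and 6.82% of all genes without control replicate 1, 2 members and 4.93% without control replicate 2, 0 members and 0.16% without labelled vKO replicate 1, and 2 members and 0.446% without labelled vKO replicate 2.

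**Figure D4:**
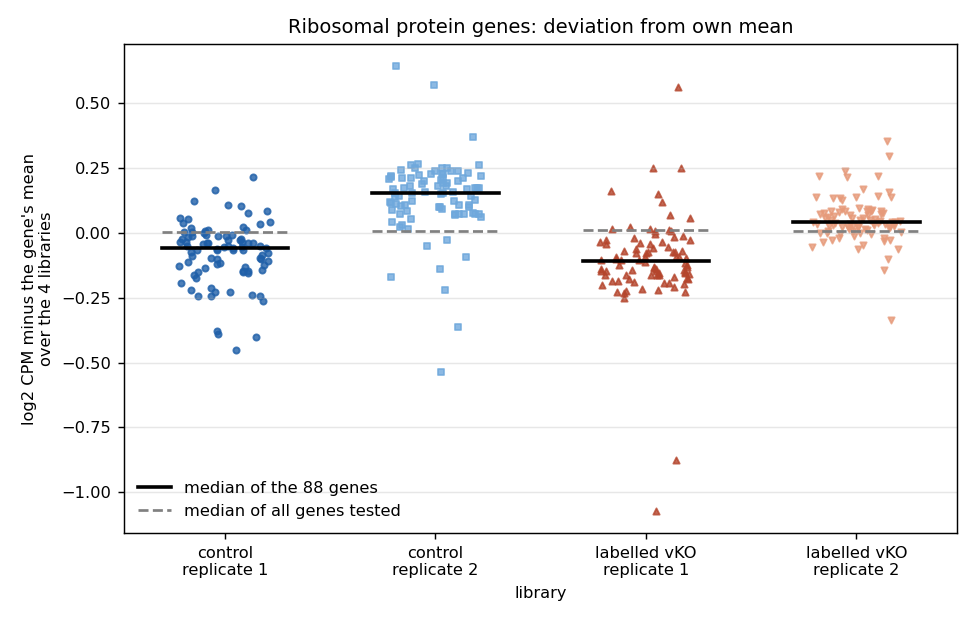
Log2 CPM of each of the 88 tested genes minus its own mean over the 4 libraries, 1 point per gene, with the members' median (black) and the median of all genes tested (dashed). The members' medians are −0.06 and 0.15 in the controls and −0.11 and 0.04 in the labelled vKO libraries, so the libraries of each group lie on both sides of 0.

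Summed over the 90 genes, the share of all counts was 1.05% and 1.30% in the controls and 1.09% and 1.23% in the labelled vKO libraries. The means were 1.18% ± 0.182 and 1.16% ± 0.0957 (SD, n = 2 each), a difference well within the spread between replicates. Rplp0 was the largest single contributor in each library, with 18031 and 25456 counts in the controls and 18090 and 20567 in the labelled vKO libraries. In bulk testis a lower level can come from fewer cells of a type or from less RNA per cell, and the 2 cannot be told apart.

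Rps4l had the lowest p of the members. Its libraries did not overlap between groups, with 2467 and 3214 counts in the controls and 3975 and 3926 in the labelled vKO libraries, and its log2 fold change was 0.47 ± 0.12 (SE, n = 2 and 2; adjusted p = 0.118, edgeR). It passed the threshold in 4 of 18 alternatives: scaling by library totals alone, the replicate block, and the fits without either control library. Scaling by library totals alone called 1.03% of all genes and the replicate block 4.81%. Its log2 fold change lay between 0.26 and 0.53 in all 18, and the lowest value came with the GC offset (adjusted p = 0.388, edgeR). The GC content of its longest transcript was 59.1%, against a median of 48.9% over all genes tested. GC content and log2 fold change had a Spearman correlation of 0.255 across 21116 genes, which share the 4 libraries and are not independent replicates. The part of GC content in the value of Rps4l was not tested. Its parent Rps4x had a log2 fold change of 0.15 ± 0.20 and an adjusted p of 0.799 by edgeR, and its groups overlapped. That value rested on single libraries: it was −0.16 without control replicate 1 and 0.55 without control replicate 2, where it was called (adjusted p = 0.0411, edgeR).

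The stalk genes, whose proteins recruit and activate the translational GTPases, did not share a direction. Rplp2 had 48.5 and 38.3 CPM in the controls and 58.6 and 54.2 CPM in the labelled vKO libraries, with a log2 fold change of 0.38 ± 0.15 and an adjusted p of 0.264 by edgeR. Rplp0 had 771 and 849 CPM against 676 and 762 CPM, a log2 fold change of −0.17 ± 0.12 (adjusted p = 0.575, edgeR). Rplp1 had 147 and 163 CPM against 138 and 158 CPM, with a log2 fold change of −0.07 ± 0.13. Rplp2 was called only without control replicate 1, at 0.55 (adjusted p = 0.00783, edgeR).

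At the other end of the range, Rps3a3 and Rps3a2 had the lowest log2 fold changes at −0.49 ± 0.45 and −0.58 ± 0.47 (Rps3a2, below the level set for naming, was added after its value was seen). Both are processed copies of Rps3a1, the small-subunit parent, and 45.4% and 86.4% of their windows of 75 bases are shared with other transcripts. Rps3a3 held 713 and 1349 counts in the controls and 442 and 1005 in the labelled vKO libraries, so the groups overlapped. Labelled vKO replicate 1 was the lowest library for both, and the ratio of Rps3a3 to Rps3a1 per kb was 0.189 there and 0.421 to 0.463 in the other libraries, and that of Rps3a2 was 0.0459 against 0.123 to 0.135. Rps3a1 itself had a log2 fold change of −0.02. Rps3a3 was called under the replicate block (−0.56, adjusted p = 0.021, edgeR) and without labelled vKO replicate 2 (−1.20, adjusted p = 0.0111, edgeR).

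Of the other genes at the edges of the range, Rpl22l1, the paralog of Rpl22, held 777 and 1059 counts in the controls and 749 and 756 in the labelled vKO libraries (log2 fold change −0.29 ± 0.14, adjusted p = 0.355, edgeR). Rps7, of the small subunit, was at 288 and 336 against 252 and 281 CPM (log2 fold change −0.23 ± 0.13, adjusted p = 0.456, edgeR), and it was called without control replicate 1 (−0.34, adjusted p = 0.0422, edgeR). The CPM of both genes did not overlap between groups and was lower in the labelled vKO libraries. Rps9 was at 126 and 115 against 133 and 134 CPM, also without overlap, but higher. Over all 88 members the groups did not overlap for 6 genes in the higher and 13 in the lower direction. Among all genes tested the share without overlap was 45.3%, with 22.7% higher and 22.6% lower.

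The 4 X-linked members all had log2 fold changes above 0, from 0.11 for Rpl10 to 0.27 for Rpl39, with adjusted p of 0.713 or higher by edgeR. Control replicate 1 had the lowest value for all 4. Without that library, 1 of the 4 stayed above 0. The difference between X-linked and autosomal members was not tested.

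Members with a set site or a known role outside protein synthesis had no call either. Rps6, the small-subunit target of S6 kinases, had a log2 fold change of −0.13 ± 0.13, and Rps3, which lies at the mRNA entry and also acts in DNA repair, one of −0.06 ± 0.13. Rpsa, also known as a laminin receptor, was at −0.16 ± 0.14. Rpl5 and Rpl11, which bind Mdm2 when ribosome assembly is disturbed, were at −0.12 ± 0.14 and −0.13 ± 0.13. Rps19 and Rps14, in which loss of 1 copy gives human anaemias, were at 0.03 ± 0.13 and −0.16 ± 0.13. Rpl38 and Rpl10a, known from studies of ribosomes that favour sets of mRNAs, were at −0.06 ± 0.14 and −0.12 ± 0.16. Rps27a, made as a fusion with ubiquitin, was at −0.17 ± 0.13. The groups overlapped for each of these 10 genes.

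Genes whose mRNAs are made and used alongside the ribosomal proteins were read from lists of the wider pathway. None of their members was called by edgeR in either direction. Among all genes tested, 14.1% passed an unadjusted p under 0.05 and 49.7% had a log2 fold change below 0. Of 17 tested elongation factors and other mRNAs of the oligopyrimidine class, 2 passed an unadjusted p under 0.05, and the list's median log2 fold change was −0.07. That list holds the fusion gene Fau, the source of Rps30, as well as Rack1, a scaffold on the small subunit. Fau was at −0.16 ± 0.14 and Rack1 at 0.01 ± 0.14.

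The 31 initiation factors had a median of −0.12, with 24 of them below 0 and 2 at an unadjusted p under 0.05. The 50 ribosome biogenesis and rDNA transcription genes had a median of 0.03, with 11 at an unadjusted p under 0.05. The 22 upstream growth regulators, which include mTOR, LARP1 and the Myc family, had a median of 0.09, with 5 at an unadjusted p under 0.05. The 77 mitochondrial ribosomal protein genes, which build the separate ribosome of the mitochondrion, had a median of 0.02 and 6 at an unadjusted p under 0.05. The medians of all 5 pathway lists lay within 0.12 of 0.

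Markers of testis cell types were read in the same libraries. All 9 Sertoli cell markers had log2 fold changes above 0 (median 0.44), their summed level was 270 and 277 CPM in the controls and 378 and 359 CPM in the labelled vKO libraries, and Wt1, a transcription factor of Sertoli cells, was called higher (0.71 ± 0.13, adjusted p = 0.0418, edgeR). Wt1 lost that call in 4 of 18 alternatives, with the length offset (adjusted p = 0.0515), without robust estimation (0.0501) and without either labelled vKO library (0.338 and 0.0824), at log2 fold changes of 0.65 to 0.76. All 7 Leydig cell markers were above 0 as well, with sums of 275 and 330 against 453 and 338 CPM and none called. Of the 8 elongating spermatid markers, 1 was above 0, and their sums were 11039 and 8935 against 8589 and 8732 CPM. Of the 10 spermatogonial markers, 9 were above 0 (median 0.25), and their sums were 234 and 266 against 262 and 251 CPM. Dazl, at −0.09, made up 133 and 167 against 140 and 142 CPM of these. Of the 8 spermatocyte markers, 1 was above 0 (median −0.16), with sums of 1515 and 1569 against 1498 and 1388 CPM. Round spermatid markers had 3 of 6 above 0 (median 0.02), with sums of 1406 and 1410 against 1323 and 1417 CPM. No marker of these 3 lists was called. The part of cell composition in the ribosomal protein values was not tested.

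Summed levels of the remaining marker lists were 48.2 and 81.1 against 78.5 and 55.4 CPM for peritubular myoid cells, 34.6 and 43.8 against 48.2 and 38.2 CPM for macrophages, and 32.9 and 21.8 against 40.2 and 34.4 CPM for endothelial cells. Erythrocyte markers summed to 26.8 and 32.5 against 42.2 and 39.3 CPM, and the 2 epididymis markers with a row to 1.24 and 0.734 against 2.02 and 1.30 CPM. None of the tested genes in these 5 lists was called, and no marker with a row in the table was at 0 in any library.

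Start-site letters were looked at because the members moved together between libraries, but whether a pyrimidine tract goes with that movement was not tested. Summed over the 90 genes, the members stood at 11142 and 12862 CPM in the controls and 10708 and 11929 in the labelled vKO libraries. The sum over the 17 elongation factors and other oligopyrimidine mRNAs went the other way, at 9297 and 8171 against 8567 and 8256 CPM. RefSeq promoters (GRCm38.p6, 250 bases before to 50 bases after the start) were matched by symbol for 66 of the 90 genes. A run of at least 8 pyrimidines within 20 bases of the start on the gene's strand was found for 30 of the 66 (45.5%), against 18.4% of all 27025 genes with a promoter. For the canonical members it was 28 of 57 (49.1%), and for the paralogs and further copies 2 of 9. The windows of Rplp2 and Rps6 hold such a run, in capitals, and those of Rpl10 and its paralog hold none.
Rplp2: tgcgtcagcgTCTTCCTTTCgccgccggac
Rps6: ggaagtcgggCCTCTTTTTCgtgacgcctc
Rpl10: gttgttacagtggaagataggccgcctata
Rpl10l: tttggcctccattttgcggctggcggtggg
They lie at chr7:141447636-141447665 (plus strand), chr4:86857349-86857378 (minus strand), chrX:74270801-74270830 (plus strand) and chr12:66284387-66284416 (minus strand). Within the whole 300 bases and on both strands, CCGGAAGT, a core bound by ETS-family factors, was present for 18.2% of the members and 4.31% of all genes, and AAGATGGC, a core bound by YY1, for 9.09% and 3.19%. A match describes the letters only.

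The members' median was also compared between settings. Under the 14 settings that kept all 4 libraries it lay between −0.10 and −0.02, and the largest move among these came with scaling by library totals alone, which shifted the median of all genes to 0.07.

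**Figure D5:**
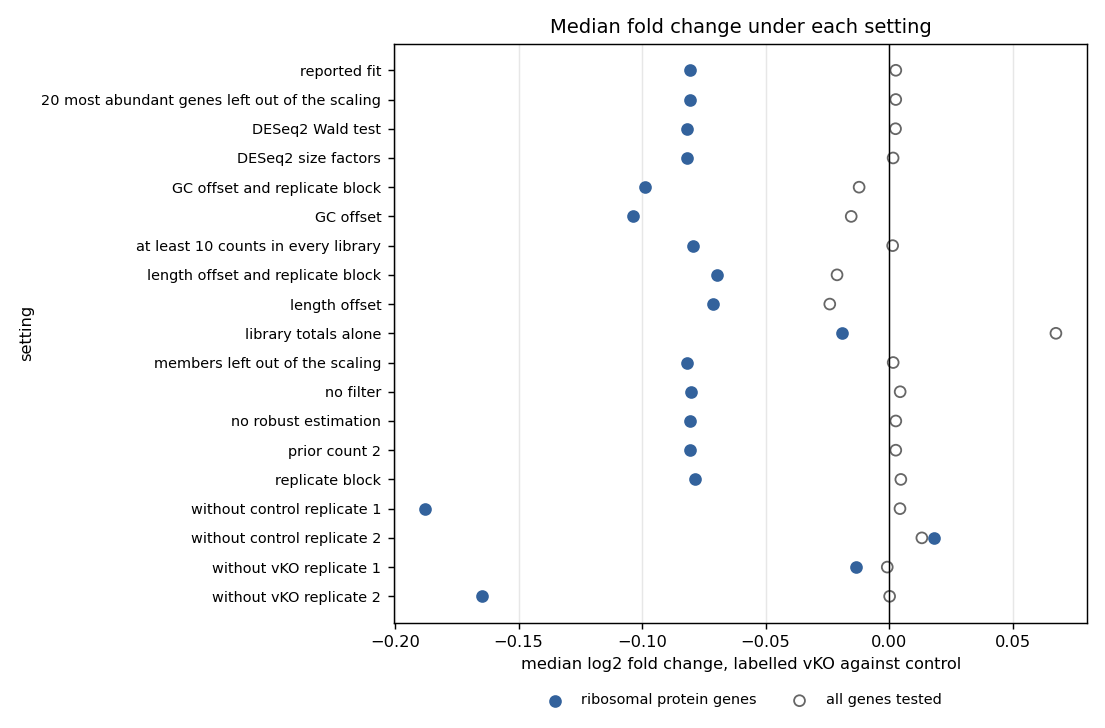
Median log2 fold change (labelled vKO against control) of the ribosomal protein genes (filled) and of all genes tested (open) under each setting. The 4 fits that leave out 1 library span −0.19 to 0.02 for the ribosomal protein genes and −0.00081 to 0.0132 for all genes. Over all settings the medians of all genes stay between −0.02 and 0.07.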

How the data were processed

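Raw counts per gene in 4 testis libraries were read from 1 table deposited by the authors, which also gives their own comparison (mean signal, log2 fold change, its standard error, a test score, p-value and adjusted p-value). HISAT2 2.1.0 and HTSeq 0.6.1p1 are named, per the submitters' processing notes. Build, annotation and strand setting are not given in the sources used here. In the deposited table every gene has at least 10 counts summed over the libraries. Groups came from the genotype label.

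Counts were tested as deposited with edgeR 4.0.16 (TMM, filterByExpr, robust quasi-likelihood test, 21132 genes, genotype only, prior count 0.125) in R 4.3.3, with Benjamini-Hochberg adjustment over all genes tested and a threshold of 0.05, two-sided. The fit was tested on simulated data. The standard error is the log2 fold change over the square root of F. DESeq2 1.42.0, other scalings and filters, GC and length offsets, a replicate block and leaving out each library were tried as alternatives. CPM per kb used the shortest GENCODE M21 transcript with the longest coding sequence. Copies were sought with BLAST+ 2.17.0. Replicates differed by more than counting noise (chi-square per degree of freedom 19.4 in the controls and 7.84 in the libraries labelled vKO). With totals of 24862518 to 29561182 counts, counting error is small except for the genes with few counts.

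Named genes were the members called, the 4 highest and 4 lowest in log2 fold change with at least 10 CPM, the paralogs and parents, the stalk genes, the 5 highest and 3 lowest canonical levels, members with set roles, called genes of the related lists, and Ythdf2. The members and lists were chosen with earlier results of these data known. The values of 1 of the 90 members and of 1 gene of a related list are not reported here, and both stay in the counts and medians.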

Additional observations from a re-analysis of the deposited data

How the results depend on the processing

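Under the settings that kept all 4 libraries, the ribosomal protein genes' median log2 fold change lay between −0.10 and −0.02. Without control replicate 2 its sign turned, to 0.02, beside 0.01 for all genes in that fit. It stayed below 0 without control replicate 1 (−0.19) and without labelled vKO replicate 1 (−0.01) or 2 (−0.16). The spread between replicate libraries was 0.13, but it comes from the same libraries and cannot judge the moves made by leaving 1 out. Over all genes, 59 were called higher and 24 lower. These counts were 137 and 80 with DESeq2's Wald test, 181 and 37 with library totals alone, and 8 and 2 at an adjusted p under 0.01. The lower calls were 62 with the GC offset and 15 without robust estimation. Without 1 library each, where a group of 1 library is assumed to vary like the other, the higher calls ran from 30 to 1048 and the lower calls from 5 to 523. Among the members, where none was called, library totals alone called 1 higher, and leaving out 1 library called 0 to 2 higher and 0 to 2 lower.

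The labels do not say that a replicate number pairs libraries, so the numbers were not taken as a pairing. Deviations of libraries with the same number correlated at 0.0975 over genes, which cannot decide the question. Of the 88 members, 81 were higher in replicate 2 of the controls and 76 in replicate 2 of the libraries labelled vKO. With the replicate block 627 genes were called higher and 390 lower, among them 1 member higher (Rps4l, 0.47, adjusted p = 0.00763, edgeR) and 1 lower (Rps3a3, −0.56). The GC offset with the replicate block called 183 and 198, and the length offset with it called 41 lower, with no member in either.

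Of 44 named genes tested, 21 changed sign in at least 1 alternative, and no value of the changed sign passed the threshold. Depth limits Rpl24, Rpl3l, Rps10, Rpl13a, Rpl36al, Rpl6l, Rps27rt, Rpl37rt and Rpl39. The part of reads shared with processed pseudogenes was not tested.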
